A study of Mus musculus with 24 samples.

Results

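The p53 pathway genes described here are the tumour suppressor p53 itself (Trp53) and 9 genes known as its direct targets, Cdkn1a, Mdm2, Ccng1, Trp53inp1, Gdf15, Perp, Bbc3, Phlda3 and Zmat3. They were taken by gene symbol from an expression table of 17094 genes, in which all 10 had a row, and all 10 passed the filter on low values that left 12178 genes to test. p53 is a transcription factor held at a low level by the ubiquitin ligase Mdm2, which is itself switched on by p53. Damage to DNA and other stresses stabilise the p53 protein, which then raises transcription of genes that halt the cell cycle, promote repair or start apoptosis. In cartilage, the pathway is best known from work on chondrocyte senescence and on cell death after injury. Because p53 is controlled mainly through the stability and modification of its protein, the level of Trp53 mRNA is not a measure of its activity.

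The cells were primary chondrocytes of wild-type mice, grown in the lower chamber of transwell plates, and poly(A) RNA was sequenced from the chondrocytes alone. There were 4 conditions, sampled 36 h and 72 h after IL-1β would be added: co-culture with primary dermal fibroblasts plus IL-1β, normal culture without fibroblasts plus IL-1β, co-culture without IL-1β, and normal culture without IL-1β. IL-1β, an inflammatory cytokine used to bring on osteoarthritis-like changes in cultured cartilage cells, was given at 10 ng/ml from 24 h after attachment. Each of the 8 groups had 3 libraries, 24 in all, and nothing in the labels says whether these came from separate mice or cultures, so p-values measure only the spread between libraries, which may be technical. Which medium filled the co-culture plates is not stated, so effects of the medium and of the fibroblasts cannot be told apart.

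RefSeq promoter windows, each from 250 bases before to 50 bases after an annotated start on GRCm38.p6, were available for 7 of the 10 genes, in 11 windows. They were searched for the p53 half-site, the 10-base motif that 1 dimer of p53 recognises and that reads the same on both strands. An exact half-site was found in 4 of the 11 windows, belonging to 4 genes, against 8.36% of all 32851 windows in the reference. A pair of half-sites with at most 1 mismatch in all, separated by 0 to 13 bases, was present in 1.09% of all windows, and a pair without mismatch in 0.0731%. The windows of Cdkn1a and Ccng1 that hold such pairs are shown whole, because these genes were among the most strongly raised and their pairs can be seen in context. For Mdm2 and Trp53, which each had a single half-site, only the half-site with 10 bases on either side is shown. Sequences run 5′ to 3′ along the gene, and capitals mark the half-sites.
Cdkn1a promoter, chr17:29090729-29091028, plus strand: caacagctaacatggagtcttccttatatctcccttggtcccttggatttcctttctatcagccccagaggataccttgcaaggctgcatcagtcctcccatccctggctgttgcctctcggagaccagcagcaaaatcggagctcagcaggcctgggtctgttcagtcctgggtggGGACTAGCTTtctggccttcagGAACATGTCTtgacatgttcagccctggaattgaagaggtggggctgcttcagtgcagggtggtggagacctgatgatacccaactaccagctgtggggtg
Ccng1 promoter, chr11:40755237-40755536, minus strand: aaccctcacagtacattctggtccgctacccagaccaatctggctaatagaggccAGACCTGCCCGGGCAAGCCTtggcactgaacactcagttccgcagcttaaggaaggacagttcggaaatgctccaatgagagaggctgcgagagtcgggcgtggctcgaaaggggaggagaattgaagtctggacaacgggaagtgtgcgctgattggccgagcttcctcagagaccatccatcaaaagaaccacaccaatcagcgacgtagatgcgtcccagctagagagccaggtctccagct
Mdm2 half-site, chr10:117710935-117710944 for the capitals, minus strand: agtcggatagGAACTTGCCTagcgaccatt
Trp53 half-site, chr11:69580284-69580293 for the capitals, plus strand: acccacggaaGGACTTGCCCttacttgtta
In the Cdkn1a window, both capital stretches match without mismatch and lie 12 bases apart, beginning 73 bases before the upstream annotated start. The 10 bases that directly follow the second capital stretch match the half-site with 1 mismatch, so that a second, adjacent pair begins 51 bases before that start. In the Ccng1 window, the paired half-sites are adjacent and begin 195 bases before the start, with 1 mismatch in the pair. The half-site began 186 bases before the start of Mdm2 and 75 bases before that of Trp53. No exact half-site was in the second window of Cdkn1a or in the windows of Phlda3, Bbc3 and Gdf15, which says only that these letters are not in those windows. A match to the motif is a description of the sequence, not a measurement of binding. The other 6 genes were located by the GENCODE annotation of GRCm38, in which Gdf15 spans chr8:70629393-70632456, Perp chr10:18845020-18857073 and Bbc3 chr7:16308393-16318205. Phlda3 spans chr1:135766119-135769136, Zmat3 chr3:32334792-32366014 and Trp53inp1 chr4:11156431-11174379.

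The deposited values are FPKM, fragment counts scaled to transcript length and to the size of the library, so levels of different genes can be set side by side. The libraries summed to 438242 to 506621 FPKM and each held 11335 to 11607 genes at or above 1 FPKM. Without read numbers, counting error could not be computed. The spread between libraries was widest in normal culture with IL-1β at 72 h, where the residual SD of log2(FPKM + 1) was 0.167, and in co-culture with IL-1β at 72 h, where it was 0.119. It was 0.0853 to 0.0994 in the other 6 groups. Of 9 chondrocyte markers, 8 were detected in every library and Matn1 was at 0 to 0.07 FPKM. Their summed level was 287 to 331 FPKM with IL-1β, against 784 to 1139 FPKM without. A list of 8 dermal fibroblast markers moved the other way, summing to 1141 to 3111 FPKM with IL-1β, against 233 to 1040 FPKM without. Most of that sum was Dcn and Lum, which chondrocytes also express. Myeloid markers summed to 56.8 to 136.7 FPKM with IL-1β, against 45.75 to 94.3 FPKM without, of which Lyz2 made up most. A list of 5 skeletal muscle markers, led by Acta1, was detected in every library. With IL-1β it summed to 165 to 178 FPKM in normal culture and 138 to 151 FPKM in co-culture at 36 h, against 111 to 128 FPKM and 107 to 118 FPKM without. At 72 h it summed to 49.2 to 55.9 FPKM in normal culture and 53.3 to 70.2 FPKM in co-culture with IL-1β, against 23.8 to 25.8 FPKM and 28.1 to 35.2 FPKM without. The part of these shifts in the changes below was not tested, and in RNA of a whole culture, fewer cells of a type and less RNA per cell cannot be told apart.

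IL-1β raised most of these p53 pathway genes in both cultures and at both times. Changes are differences of log2(FPKM + 1) from limma, fitted to all 24 libraries, and the threshold was 0.05 on the p adjusted over all genes tested. At 36 h, 9 genes rose and Trp53 fell in normal culture, where 25.9% of all genes tested were higher and 41.5% lower, 67.5% together. In co-culture at 36 h, the count was also 9 higher and 1 lower, against 23.4% higher and 35.3% lower of all genes, 58.7% together. At 72 h, 9 genes were higher and Perp lower in normal culture, against 23.1% and 40.3% of all genes, 63.4% together. In co-culture at 72 h, 8 were higher, Perp was lower and Phlda3 did not pass, against 18.5% and 30.6% of all genes, 49.1% together. The median log2 change over the 10 genes was 1.36 in normal culture and 1.33 in co-culture at 36 h, where the medians over all genes were -0.0857 and -0.0555. At 72 h, the medians over the 10 genes were 0.37 in normal culture and 0.35 in co-culture, where those over all genes were -0.0822 and -0.0635.

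**Figure D1:**
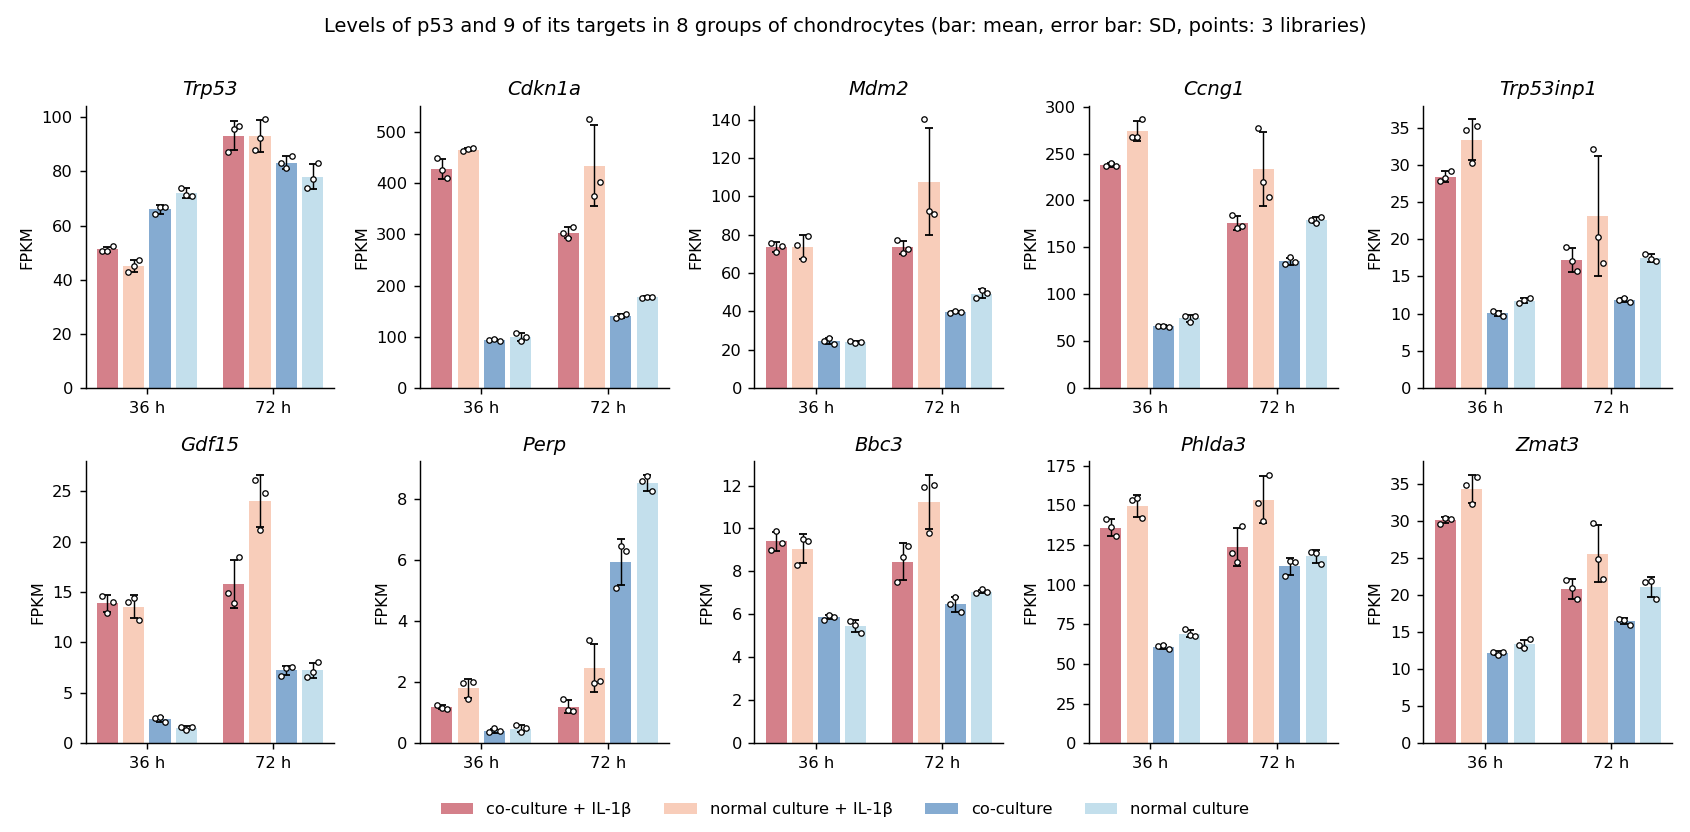
FPKM of p53 and 9 of its targets (1 panel per gene, vertical axis from 0) in the 8 groups at 36 h and 72 h. Bars are group means, error bars the SD, and points the 3 libraries of each group. With IL-1β at 36 h, Cdkn1a sat between 410 and 468 FPKM in both cultures, above the 90.85 to 108 FPKM of untreated libraries, while Trp53 was lowest there.

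**Figure D2:**
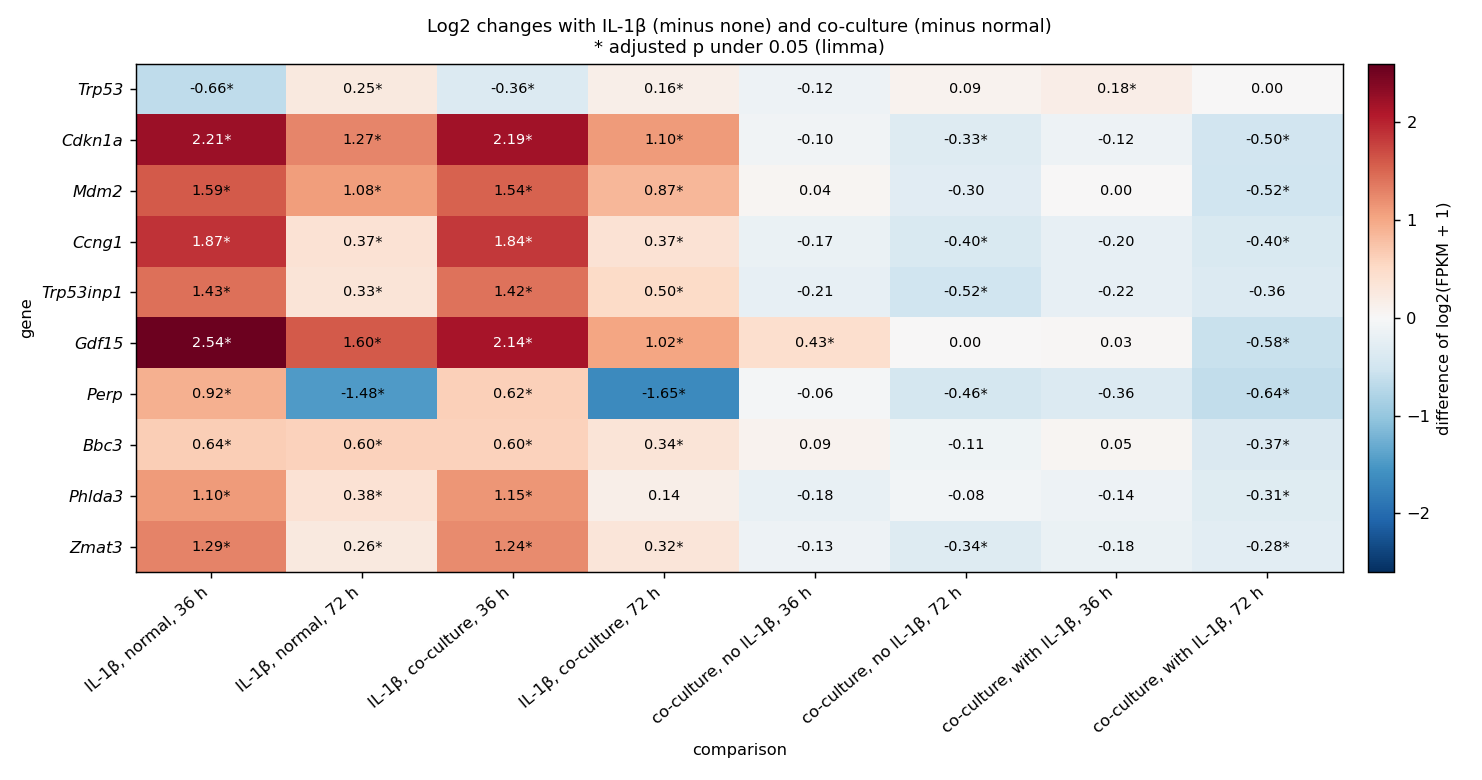
Differences of log2(FPKM + 1) for the 10 genes (rows) in 8 comparisons (columns), IL-1β minus none or co-culture minus normal culture, with red for higher, blue for lower and an asterisk for an adjusted p under 0.05. The 4 IL-1β columns are mostly red, with exceptions at Trp53 at 36 h and Perp at 72 h, and the column for co-culture with IL-1β at 72 h is blue for every gene except Trp53.

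Trp53 mRNA moved with IL-1β in opposite directions at the 2 times. At 36 h it was at 42.8, 45.05 and 47.4 FPKM in normal culture with IL-1β, against 73.9, 71.3 and 70.8 FPKM without. Trp53 in co-culture was at 50.8, 50.4 and 52.3 FPKM with IL-1β, against 64.1, 66.95 and 67.0 FPKM without. The groups did not overlap in either culture, and the log2 change was -0.66 in normal culture (SE 0.05, adjusted p = 1.6e-10) and -0.36 in co-culture (SE 0.05, adjusted p = 3.2e-06). At 72 h the order was turned round. Trp53 was at 87.7, 92.3 and 99.2 FPKM in normal culture with IL-1β, against 74.0, 77.2 and 83.0 FPKM without. It was at 87.0, 95.65 and 96.95 FPKM in co-culture with IL-1β, against 83.0, 81.1 and 85.7 FPKM without. Each treated library was above each untreated one of its culture, but the changes were small, 0.25 in normal culture (adjusted p = 0.00023) and 0.16 in co-culture (adjusted p = 0.014). Rescaling the libraries to TPM lowered the median IL-1β change over all genes. It brought these Trp53 changes to 0.13 in normal culture (adjusted p = 0.015) and 0.072 in co-culture (adjusted p = 0.18). The co-culture call was also lost without co-culture library 2 (adjusted p = 0.059) and without library 2 or 3 of co-culture with IL-1β (adjusted p = 0.058 and 0.068).

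Cdkn1a, which encodes the cyclin-dependent kinase inhibitor p21 and carries much of the cell cycle arrest that p53 brings about, was the most abundant of the 10 with IL-1β. It lies on chromosome 17 at 29090976 to 29100727 of GRCm38, plus strand. At 36 h it was at 463, 466 and 468 FPKM in normal culture with IL-1β, against 108, 92.1 and 99.5 FPKM without, a 4.67-fold ratio of the means. Cdkn1a in co-culture was at 449, 426 and 410 FPKM with IL-1β, against 93.3, 95.4 and 90.85 FPKM without, a 4.59-fold ratio. The treated libraries lay far above the untreated ones in both cultures, with log2 changes of 2.21 (SE 0.08, adjusted p = 2.0e-16) and 2.19 (SE 0.08, adjusted p = 3.8e-16). At 72 h, normal culture gave 525, 376 and 403 FPKM with IL-1β, against 175, 179 and 178 FPKM without. Co-culture gave 302, 293 and 315 FPKM with IL-1β, against 136.01, 141 and 145 FPKM without. The gap had narrowed to 2.45-fold and 2.16-fold, still without overlap, and untreated cells held more Cdkn1a at 72 h than at 36 h. The annotated gene AC167363.2 on the opposite strand overlaps Cdkn1a over 1046 bases, and whether strand was used in counting is not stated.

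Mdm2, the ubiquitin ligase that marks p53 for degradation and closes the feedback loop, rose about as much in both cultures at 36 h. It was at 74.4, 67.2 and 79.5 FPKM in normal culture with IL-1β, against 24.3, 23.2 and 23.9 FPKM without. Mdm2 in co-culture was at 75.6, 70.85 and 74.3 FPKM with IL-1β, against 24.6, 26.2 and 23.0 FPKM without. The log2 changes were 1.59 (SE 0.10, adjusted p = 6.7e-12) and 1.54 (SE 0.10, adjusted p = 1.8e-11). At 72 h, normal culture with IL-1β gave 140.25, 92.35 and 90.7 FPKM, against 47.0, 51.2 and 49.7 FPKM without. Library 1 of the treated group stood apart from the other two. Co-culture at 72 h gave 77.1, 70.3 and 72.75 FPKM with IL-1β, against 39.3, 40.4 and 39.7 FPKM without. No treated library overlapped an untreated one, with log2 changes of 1.08 in normal culture and 0.87 in co-culture (adjusted p = 6.2e-09 and 3.1e-07).

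Ccng1, cyclin G1, a partner of protein phosphatase 2A that acts on Mdm2, was next to Cdkn1a in mean level in every group with IL-1β. At 36 h it was at 268, 268 and 286 FPKM in normal culture with IL-1β, against 76.9, 69.9 and 76.2 FPKM without. Ccng1 in co-culture was at 236.34, 240.2 and 236.35 FPKM with IL-1β, against 66.3, 66.3 and 64.6 FPKM without. These are 3.69-fold and 3.61-fold ratios of the means, with log2 changes of 1.87 and 1.84 (adjusted p = 6.7e-16 and 1.2e-15). At 72 h the treated groups were little above the untreated ones. Normal culture gave 278, 219 and 203 FPKM with IL-1β, against 179, 176 and 182 FPKM without, and co-culture gave 184, 170.2 and 173 FPKM with IL-1β, against 132, 139 and 134 FPKM without. The groups still did not overlap, and the ratio was 1.30-fold in both cultures, with log2 changes of 0.37 and 0.37 (adjusted p = 0.00012 and 0.00015). In normal culture, the change was 0.23 without treated library 1 and 0.24 after rescaling to TPM, both still past the threshold.

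Gdf15, a secreted cytokine of the TGF-β superfamily that responds to p53 and to other stress pathways, had the highest ratio of mean FPKM with IL-1β over none at 36 h of the 10 genes in both cultures. At 36 h it was at 13.97, 14.45 and 12.25 FPKM in normal culture with IL-1β, against 1.61, 1.28 and 1.60 FPKM without. Gdf15 in co-culture was at 14.6, 12.9 and 14.04 FPKM with IL-1β, against 2.46, 2.56 and 2.07 FPKM without. The ratios of the means were 9.06-fold and 5.86-fold, with log2 changes of 2.54 (SE 0.10, adjusted p = 6.7e-16) and 2.14 (SE 0.10, adjusted p = 2.0e-14). In co-culture, the log2(FPKM + 1) change of Cdkn1a, 2.19, was the larger. At 72 h it was at 26.1, 21.15 and 24.85 FPKM in normal culture with IL-1β, against 6.57, 7.11 and 8.06 FPKM without. Gdf15 in co-culture was then at 14.9, 13.9 and 18.5 FPKM with IL-1β, against 6.71, 7.49 and 7.52 FPKM without. The highest levels of Gdf15 were therefore in normal culture with IL-1β at 72 h, whose 3 libraries were above all others.

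Phlda3, a pleckstrin-homology protein that competes with Akt for the plasma membrane, Zmat3, a zinc finger protein that binds RNA, and Trp53inp1, a nuclear protein that promotes autophagy and cell death, all rose with IL-1β at 36 h. At 36 h, Phlda3 was at 142 to 155 FPKM in normal culture with IL-1β, against 67.7 to 71.8 FPKM without, and at 131 to 141 FPKM in co-culture with IL-1β, against 59.2 to 61.8 FPKM without. At 72 h it was at 140.04 to 169 FPKM in normal culture with IL-1β, against 113 to 120.4 FPKM without, a log2 change of 0.38 (adjusted p = 2.7e-05). In co-culture at 72 h, Phlda3 was at 114 to 137 FPKM with IL-1β, against 105 to 115 FPKM without, and these overlapping groups did not pass (log2 change 0.14, adjusted p = 0.070). Zmat3 was at 32.25 to 35.9 FPKM in normal culture with IL-1β at 36 h, against 12.9 to 14.02 FPKM without, and at 29.65 to 30.4 FPKM in co-culture with IL-1β, against 11.9 to 12.3 FPKM without. At 72 h its log2 changes were 0.26 in normal culture (adjusted p = 0.0033) and 0.32 in co-culture (adjusted p = 0.00086), where they had been 1.29 and 1.24 at 36 h. In normal culture, the Zmat3 change at 72 h was 0.15 without treated library 1 (adjusted p = 0.035), 0.15 after rescaling to TPM (adjusted p = 0.16), and did not pass with only the 2 groups in the fit (adjusted p = 0.065).

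Trp53inp1 was at 30.2 to 35.2 FPKM in normal culture with IL-1β at 36 h, against 11.4 to 12.03 FPKM without, and at 27.9 to 29.2 FPKM in co-culture with IL-1β, against 9.67 to 10.3 FPKM without. The log2 changes were 1.43 and 1.42 (adjusted p = 1.6e-09 and 3.1e-09). In normal culture at 72 h, the treated libraries held 32.2, 20.3 and 16.9 FPKM of Trp53inp1, against 18.04, 17.3 and 17.1 FPKM in the untreated ones. These groups overlapped, and the change of 0.33 (adjusted p = 0.027) rested on treated library 1, without which it was 0.077 (adjusted p = 0.36). It was 0.52 without treated library 3 and 0.22 with library weights, and it missed the threshold without untreated library 2 (adjusted p = 0.060) or 3 (adjusted p = 0.068), after rescaling to TPM (0.22, adjusted p = 0.18) and with only the 2 groups in the fit (adjusted p = 0.17). In co-culture at 72 h, Trp53inp1 was at 15.7 to 18.9 FPKM with IL-1β, against 11.6 to 12.15 FPKM without, a change of 0.50 without overlap (adjusted p = 0.0024).

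Of the 2 genes tied to apoptosis, Bbc3 encodes PUMA, a BH3-only protein that binds the antiapoptotic members of the BCL2 family. It was at 8.28, 9.49 and 9.42 FPKM in normal culture with IL-1β at 36 h, against 5.70, 5.50 and 5.14 FPKM without, and at 9.02, 9.87 and 9.32 FPKM in co-culture with IL-1β, against 5.76, 5.96 and 5.90 FPKM without. At 72 h it was at 11.9, 9.79 and 12.01 FPKM in normal culture with IL-1β, against 7.01, 7.16 and 7.02 FPKM without, and at 7.49, 8.69 and 9.17 FPKM in co-culture with IL-1β, against 6.48, 6.83 and 6.11 FPKM without. No treated library overlapped an untreated one of its culture and time. The log2 changes were 0.64 and 0.60 at 36 h and 0.60 and 0.34 at 72 h, normal culture named before co-culture (adjusted p at most 0.00052).

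Perp, which encodes a membrane protein of desmosomes in epithelia with a proapoptotic role downstream of p53, went in opposite directions at the 2 times. At 36 h it was at 1.97, 1.45 and 2.00 FPKM in normal culture with IL-1β, against 0.59, 0.36 and 0.49 FPKM without. Perp in co-culture was at 1.25, 1.17 and 1.13 FPKM with IL-1β, against 0.36, 0.49 and 0.41 FPKM without. All treated libraries were above the untreated ones, at levels near the filter of 1 FPKM, with log2 changes of 0.92 and 0.62 (adjusted p = 3.3e-07 and 8.4e-05). With a pseudocount of 0.1, these Perp changes were 1.72 and 1.31. The change from 36 h to 72 h in untreated co-culture was then 3.54 in place of 2.29. At 72 h, Perp was at 3.38, 1.99 and 2.06 FPKM in normal culture with IL-1β, against 8.59, 8.78 and 8.26 FPKM without. Co-culture gave Perp values of 1.45, 1.10 and 1.07 FPKM with IL-1β, against 5.08, 6.46 and 6.31 FPKM without. Here the treated libraries were all below the untreated ones, which had risen with time, and the means were 3.45-fold and 4.93-fold lower with IL-1β (log2 changes -1.48 and -1.65, adjusted p = 2.5e-10 and 4.9e-11). Perp is also a target of p63, and Trp63 averaged 0.50 FPKM in normal culture with IL-1β at 72 h, against 1.72 FPKM without, and 0.553 FPKM in co-culture with IL-1β, against 1.54 FPKM without. At 36 h, Trp63 was lower with IL-1β as well, at 0.98 FPKM against 3.22 FPKM in normal culture and 1.00 FPKM against 2.79 FPKM in co-culture. The part of p63 in the Perp changes was not tested. Of 7 epithelial markers with a row, Krt5, Epcam, Cdh1 and Dsp were at 0 to 0.12 FPKM in every library. The others were detected in every library, Krt18 at 0.07 to 2.53 FPKM, Pkp1 at 0.19 to 3.2 FPKM and Trp63 at 0.48 to 3.3 FPKM. With Trp63 included, the list summed to 1.24 to 1.74 FPKM with IL-1β, against 3.15 to 7.23 FPKM without.

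**Figure D3:**
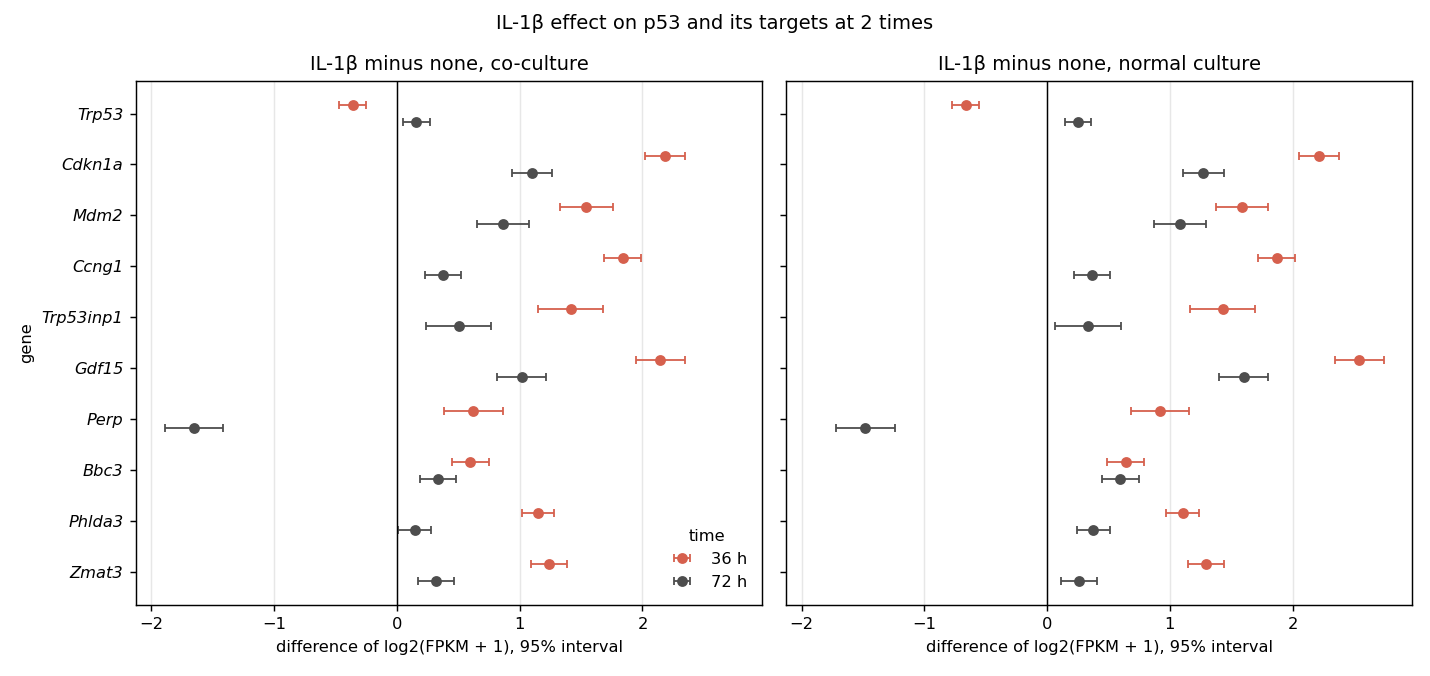
Effect of IL-1β on the 10 genes in co-culture (left) and normal culture (right), as the difference of log2(FPKM + 1) with its 95% interval on the horizontal axis, at 36 h (red) and 72 h (dark grey). For 8 genes the 72 h point lies left of the 36 h point with intervals apart in both cultures, for Trp53 it lies right of it, and for Bbc3 the intervals overlap.

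The IL-1β effect itself differed between the 2 times for 9 of the 10 genes in each culture. In normal culture, the effect at 72 h minus that at 36 h was lower for 8 genes and higher for Trp53, against 21.6% lower and 23.7% higher of all genes tested, 45.4% together. In co-culture, it was again lower for 8 and higher for Trp53, against 14.8% and 14.1% of all genes, 28.8% together. The difference for Trp53 was 0.92 in normal culture (adjusted p = 2.1e-09) and 0.52 in co-culture (adjusted p = 1.1e-05). The 8 genes with a smaller or reversed effect at 72 h were Cdkn1a, Mdm2, Ccng1, Trp53inp1, Gdf15, Perp, Phlda3 and Zmat3, with differences from -0.50 (Mdm2, normal culture) to -2.40 (Perp, normal culture). With a pseudocount of 0.1, the Perp difference in co-culture was -3.52 in place of -2.27. Bbc3 did not pass, at -0.04 in normal culture (adjusted p = 0.75) and -0.26 in co-culture (adjusted p = 0.058). These comparisons reuse the libraries of the single IL-1β comparisons and add no independent evidence to them.

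With time alone, untreated chondrocytes gained most of these transcripts. In normal culture without IL-1β, 9 genes were higher at 72 h than at 36 h, against 33.1% higher and 25.3% lower of all genes, 58.4% together. Perp changed most, with a 17.8-fold ratio of the means at 72 h over 36 h, followed by Gdf15 at 4.84-fold, Ccng1 at 2.41-fold and Mdm2 at 2.07-fold. At 36 h, Perp was at 0.36 to 0.59 FPKM there, below the filter of 1 FPKM, so its ratio has a low base. Its log2(FPKM + 1) change, 2.69, was also the largest of the 10. Marker sums differed between the times as well. In untreated normal culture, dermal fibroblast markers summed to 255 to 312 FPKM at 72 h, against 1030 to 1040 FPKM at 36 h, and skeletal muscle markers to 23.8 to 25.8 FPKM, against 111 to 128 FPKM. Chondrocyte markers summed to 1072 to 1139 FPKM at 72 h, against 784 to 816 FPKM at 36 h, and myeloid markers to 87.45 to 94.3 FPKM, against 46.7 to 54.4 FPKM. Epithelial markers, a list that includes Trp63, summed to 5.37 to 5.67 FPKM at 72 h, against 3.53 to 3.63 FPKM at 36 h. The part of these shifts in the changes with time was not tested. Trp53 did not pass (log2 change 0.11, adjusted p = 0.064). In co-culture without IL-1β, 8 genes were higher at 72 h, against 36.6% higher and 24.9% lower of all genes (61.5% together), and Trp53inp1 (0.22, adjusted p = 0.14) and Bbc3 (0.12, adjusted p = 0.16) did not pass. No gene of the 10 was lower with time in untreated cells of either culture, at an adjusted or an unadjusted p under 0.05 from limma. Cells with IL-1β differed between the 2 times in both directions. In normal culture with IL-1β, 5 genes were higher at 72 h (Trp53, Mdm2, Gdf15, Perp and Bbc3) and 3 lower (Ccng1, Trp53inp1 and Zmat3), against 37.1% and 32.0% of all genes, 69.1% together. Several of these moved with a single library: without library 1 at 72 h, the Mdm2 change was 0.31 in place of 0.52, the Ccng1 change -0.37 in place of -0.24 and the Perp change 0.11 in place of 0.29, which no longer passed (adjusted p = 0.30). With library weights, Mdm2 was at 0.33, Bbc3 at 0.15 in place of 0.28 and Perp at 0.091 (adjusted p = 0.33). Without library 3 at 72 h, Ccng1 was at -0.15 (adjusted p = 0.050) and Trp53inp1 at -0.37 in place of -0.56, and without library 2 at 36 h, Perp was at 0.20 (adjusted p = 0.17). Cdkn1a and Phlda3 did not pass there over all libraries. Without single libraries, the Cdkn1a change ranged from -0.26 to -0.019, with adjusted p from 0.00020 to 0.84 from limma. In co-culture with IL-1β, Trp53 was higher at 72 h (0.85, adjusted p = 7.9e-12), and Cdkn1a (-0.50), Ccng1 (-0.43), Trp53inp1 (-0.69) and Zmat3 (-0.51) were lower, against 35.4% and 28.9% of all genes, 64.3% together.

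Co-culture with fibroblasts had small effects on these genes at 36 h. Without IL-1β at 36 h, Gdf15 alone passed, at 2.46, 2.56 and 2.07 FPKM in co-culture against 1.61, 1.28 and 1.60 FPKM in normal culture (log2 change 0.43, SE 0.10, adjusted p = 0.0036), against 6.28% higher of all genes. None of the 10 passed as lower, against 9.2% of all genes (15.5% in either direction), and 3 were lower at an unadjusted p under 0.05 from limma. The other 9 log2 changes ranged from -0.21 (Trp53inp1) to 0.09 (Bbc3). With only the 2 groups in the fit, 1 gene passed as higher and 4 as lower, and with library weights 1 and 5. The count passing was 4 without library 1 of normal culture with IL-1β at 72 h and 3 without its library 3. It was 2 without its library 2 and without library 2 or 3 of co-culture with IL-1β at 72 h, libraries that enter only through the shared estimate of the spread. With IL-1β at 36 h, Trp53 alone passed, at 0.18 (adjusted p = 0.028), against 6.38% higher of all genes. None passed as lower, against 4.17% of all genes (10.6% in either direction), with 4 lower at an unadjusted p. That Trp53 call was lost without library 1 or 2 of normal culture with IL-1β (adjusted p = 0.16 and 0.066) and without library 1, 2 or 3 of co-culture with IL-1β (adjusted p = 0.067, 0.058 and 0.11). The number passing was 5 without library 1 of normal culture with IL-1β at 72 h, 4 without its library 3, and 2 without its library 2 or without library 1 of either co-culture group at 72 h. With only the 2 groups in the fit, 5 genes passed, 4 of them lower.

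At 72 h, the 2 comparisons of co-culture with normal culture mostly gave lower levels in co-culture. Without IL-1β, 5 genes were lower in co-culture, against 1.68% of all genes tested, and none was higher, against 1.72% (3.4% in either direction), nor was any higher at an unadjusted p under 0.05 from limma. Ccng1 was at 132, 139 and 134 FPKM in co-culture, against 179, 176 and 182 FPKM in normal culture (log2 change -0.40, SE 0.07, adjusted p = 0.0021). Zmat3 was at 16.8, 16.65 and 16.01 FPKM in co-culture, against 21.8, 22.0 and 19.5 FPKM in normal culture (-0.34, adjusted p = 0.011). Every co-culture library was below every normal culture library for both genes. The other 3 were Cdkn1a (-0.33, adjusted p = 0.023), Trp53inp1 (-0.52, adjusted p = 0.026) and Perp (-0.46, adjusted p = 0.029). Mdm2 (-0.30, adjusted p = 0.11) and Bbc3 (-0.11, adjusted p = 0.42) did not pass. The count depended on each of the 6 libraries compared, since it was 1, 1 and 2 without normal culture library 1, 2 or 3, and 2, 3 and 1 without co-culture library 1, 2 or 3. Only Ccng1 passed whichever library was left out, and with the 2 groups alone in the fit 6 genes passed, all lower. The Perp call was also lost with a pseudocount of 0.1 (adjusted p = 0.11) and after rescaling to TPM (adjusted p = 0.054).

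With IL-1β at 72 h, 8 of the 10 genes were lower in co-culture than in normal culture, against 5.26% of all genes, and none was higher, against 7.22% (12.5% in either direction), nor was any higher at an unadjusted p under 0.05 from limma. Cdkn1a was at 302, 293 and 315 FPKM in co-culture with IL-1β, against 525, 376 and 403 FPKM in normal culture with IL-1β (log2 change -0.50, SE 0.08, adjusted p = 0.00068). Mdm2 was at 77.1, 70.3 and 72.75 FPKM in co-culture, against 140.25, 92.35 and 90.7 FPKM in normal culture (-0.52, SE 0.10, adjusted p = 0.0034). Gdf15 was at 14.9, 13.9 and 18.5 FPKM in co-culture, against 26.1, 21.15 and 24.85 FPKM in normal culture (-0.58, SE 0.10, adjusted p = 0.00099). Perp (-0.64), Ccng1 (-0.40), Bbc3 (-0.37), Phlda3 (-0.31) and Zmat3 (-0.28) were lower as well, with adjusted p from 0.0018 to 0.016. Trp53inp1 did not pass (-0.36, adjusted p = 0.069), and Trp53 stood at 0.00 with a 95% interval from -0.11 to 0.11. The Trp53inp1 change was -0.0996 without library 1 of normal culture with IL-1β (adjusted p = 0.46). It passed at -0.55 without library 3 of that group (adjusted p = 0.0025), at -0.42 without its library 2 (adjusted p = 0.045) and at -0.22 with library weights (adjusted p = 0.013). The normal culture group was the most spread of all, and its library 1 was the highest for Cdkn1a, Mdm2, Ccng1, Trp53inp1, Gdf15, Perp and Zmat3. Without that library, 7 genes passed: the Mdm2 change was -0.32 (adjusted p = 0.0045), while Zmat3 was at -0.17 (adjusted p = 0.11). With library weights, the Bbc3 change was -0.21 (adjusted p = 0.014). Zmat3 also missed the threshold without library 2 or 3 of co-culture with IL-1β (adjusted p = 0.050 and 0.054).

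The calls for co-culture with IL-1β at 72 h rested on the spread shared over all 8 groups. With only the 2 compared groups in the fit, no gene of the 10 and none of the 12178 passed, while 8 of the 10 and 1418 of all genes had an unadjusted p under 0.05, all 8 lower in co-culture. In that fit the adjusted p of the 8 genes called over all libraries ranged from 0.29 (Gdf15) to 0.39 (Zmat3). Same-numbered libraries of these 2 groups deviated together, so their numbers were taken as pairs. With the replicate number as a block in the fit to all libraries, 8 genes passed as before. That block gives each number the same effect in all 8 groups, so it does not pair these 2 groups alone. With the block and only these 2 groups, none of the 10 and none of the 12178 passed, at adjusted p from 0.10 (Gdf15, Perp and Phlda3) to 0.13 (Bbc3) for the 8 genes, and 9 of the 10 and 2752 of all genes had an unadjusted p under 0.05, all 9 lower. The log2 changes were the same in all these fits.

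Whether the IL-1β effect differed between co-culture and normal culture was tested as an interaction. At 36 h, Trp53 alone passed, with an effect of IL-1β that was less negative in co-culture by 0.30 (SE 0.07, adjusted p = 0.013), against 4.73% higher and 2.23% lower of all genes tested, 6.96% together. For Cdkn1a, Mdm2, Ccng1, Trp53inp1, Bbc3, Phlda3 and Zmat3, the interaction at 36 h lay between -0.06 and 0.05. The 95% intervals of Cdkn1a (-0.26 to 0.20) and Mdm2 (-0.34 to 0.26) reach well beyond these estimates. Gdf15 was at -0.40 (adjusted p = 0.087) and Perp at -0.30 (adjusted p = 0.30). A second gene passed without library 3 of co-culture with IL-1β at 72 h. At 72 h, Gdf15 alone passed, with a difference in IL-1β effect, co-culture minus normal culture, of -0.58 (SE 0.14, adjusted p = 0.025), against 1.43% lower and 1.68% higher of all genes, 3.11% together. This call was lost without library 1 or 2 of untreated normal culture at 72 h (adjusted p = 0.063 and 0.054), without library 2 or 3 of untreated co-culture (0.056 and 0.073), without library 1 or 2 of co-culture with IL-1β (0.067 and 0.078), and with only the 4 groups of 72 h in the fit (0.16). The number of genes passing was 2 without library 1 and 3 without library 2 of normal culture with IL-1β, and 2 without library 3 of co-culture with IL-1β. Bbc3 (-0.26, adjusted p = 0.14) and Phlda3 (-0.23, adjusted p = 0.14) did not pass at 72 h, and the other 7 lay between -0.22 (Mdm2) and 0.17 (Trp53inp1).

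Across the 8 groups, the order of levels differed between genes. Trp53 was highest with IL-1β at 72 h, with means of 93.2 FPKM in co-culture and 93.1 FPKM in normal culture whose libraries overlapped, and lowest in normal culture with IL-1β at 36 h, with 45.1 FPKM. Cdkn1a, Ccng1, Trp53inp1 and Zmat3 were highest in normal culture with IL-1β at 36 h, with means of 466, 274, 33.4 and 34.35 FPKM, and lowest in untreated co-culture at 36 h, with means of 93.2, 65.7, 10.0 and 12.2 FPKM. For Cdkn1a, the top group overlapped the next, normal culture with IL-1β at 72 h, and the lowest overlapped untreated normal culture at 36 h. Mdm2, Gdf15, Bbc3 and Phlda3 were highest in normal culture with IL-1β at 72 h, with means of 108, 24.0, 11.2 and 154 FPKM. Mdm2 and Gdf15 stood clear of the next group, while Bbc3 and Phlda3 overlapped it. Perp alone was highest in an untreated group, normal culture at 72 h with a mean of 8.54 FPKM, clear of untreated co-culture at 72 h with 5.95 FPKM. Over all 24 libraries, the highest value was 24.4 times the lowest for Perp and 20.4 times for Gdf15, against 2.32 times for Trp53 and 2.34 times for Bbc3.

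Other parts of the pathway were followed through lists of genes. Of 28 further p53 targets, 27 were tested. With IL-1β at 36 h, 17 rose and 6 fell in normal culture, where 25.9% of all genes were higher and 41.5% lower, and 17 rose and 3 fell in co-culture, where the shares were 23.4% and 35.3%. At 72 h, 17 rose and 3 fell in normal culture, against 23.1% higher and 40.3% lower of all genes, and 16 rose and 4 fell in co-culture, against 18.5% and 30.6%. The median log2 changes were 0.66 in normal culture and 0.81 in co-culture at 36 h, and 0.31 and 0.22 at 72 h, beside the medians over all genes given above. Eda2r, a receptor of the TNF receptor family, averaged 21.02 FPKM in normal culture with IL-1β at 36 h, against 4.98 FPKM without (log2 change 1.88, adjusted p = 4.8e-12). Btg2, an antiproliferative gene, averaged 53.7 FPKM with IL-1β, against 14.9 FPKM without (1.78, adjusted p = 1.3e-18). Fas, the death receptor, led the list at 72 h, at 28.9 FPKM in normal culture with IL-1β, against 8.57 FPKM without (1.64), while Sesn1, a sestrin that restrains mTORC1, fell to 5.09 FPKM, against 9.88 FPKM without (-0.83). Under co-culture with IL-1β at 72 h, 10 of the 27 were lower and 1 higher than in normal culture, against 5.26% lower and 7.22% higher of all genes. With only the 2 compared groups in the fit, none of the 27 passed, and 9 were lower and 1 higher at an unadjusted p under 0.05 from limma. The largest fall over all libraries was that of Pmaip1, which encodes NOXA, at 6.63 ± 0.587 FPKM against 10.5 ± 4.04 FPKM (SD, n = 3 each; log2 change -0.55, adjusted p = 0.013 from limma). Btg2 ran the other way at 36 h, higher in co-culture both without IL-1β (47.5 FPKM against 14.9 FPKM, 1.61) and with it (114 FPKM against 53.7 FPKM, 1.07).

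The cell cycle genes known to be repressed through p21 and the DREAM complex were followed as a list of 18. All 18 fell with IL-1β in normal culture at 36 h (median log2 change -1.51) and at 72 h (-0.70), where 41.5% and 40.3% of all genes were lower. In co-culture, 16 fell at 36 h (median -0.70) and 15 at 72 h (median -0.41), where 35.3% and 30.6% of all genes were lower, and none was higher, at an adjusted or an unadjusted p, in any of these 4 comparisons. Mcm3, a subunit of the replicative helicase, averaged 3.28 FPKM in normal culture with IL-1β at 36 h, against 19.3 FPKM without (-2.26). Mki67, a proliferation marker, averaged 4.69 FPKM with IL-1β, against 20.7 FPKM without (-1.93). With IL-1β present, 16 of the 18 were higher in co-culture than in normal culture at 36 h and 12 at 72 h, against 6.38% and 7.22% higher of all genes. With only the 2 compared groups in the fit, 16 passed as higher at 36 h and none at 72 h, where 9 were higher at an unadjusted p under 0.05 from limma. Ccna2, cyclin A2, averaged 12.1 FPKM in co-culture with IL-1β at 36 h, against 6.38 FPKM in normal culture with IL-1β (0.83, adjusted p = 4.1e-05), while Cdkn1a at the same time did not pass (-0.12, adjusted p = 0.37). Without IL-1β, none of the 18 differed between the cultures at 36 h or 72 h at an adjusted or unadjusted p under 0.05 from limma fitted to all libraries. With only the 2 compared groups in the fit, 4 passed as lower in co-culture at 36 h and 1 as higher at 72 h, with 8 of the 18 at an unadjusted p under 0.05 at each time. With time, all 18 were higher at 72 h than at 36 h in each of the 4 conditions, against 33.1% to 37.1% of all genes. Their median log2 change was 1.04 in untreated normal culture and 1.16 in untreated co-culture, where Cdkn1a was higher at 72 h as well (0.82 and 0.59), and 1.85 in normal culture and 1.53 in co-culture with IL-1β. The part of Cdkn1a in the levels of these genes was not tested.

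**Figure D4:**
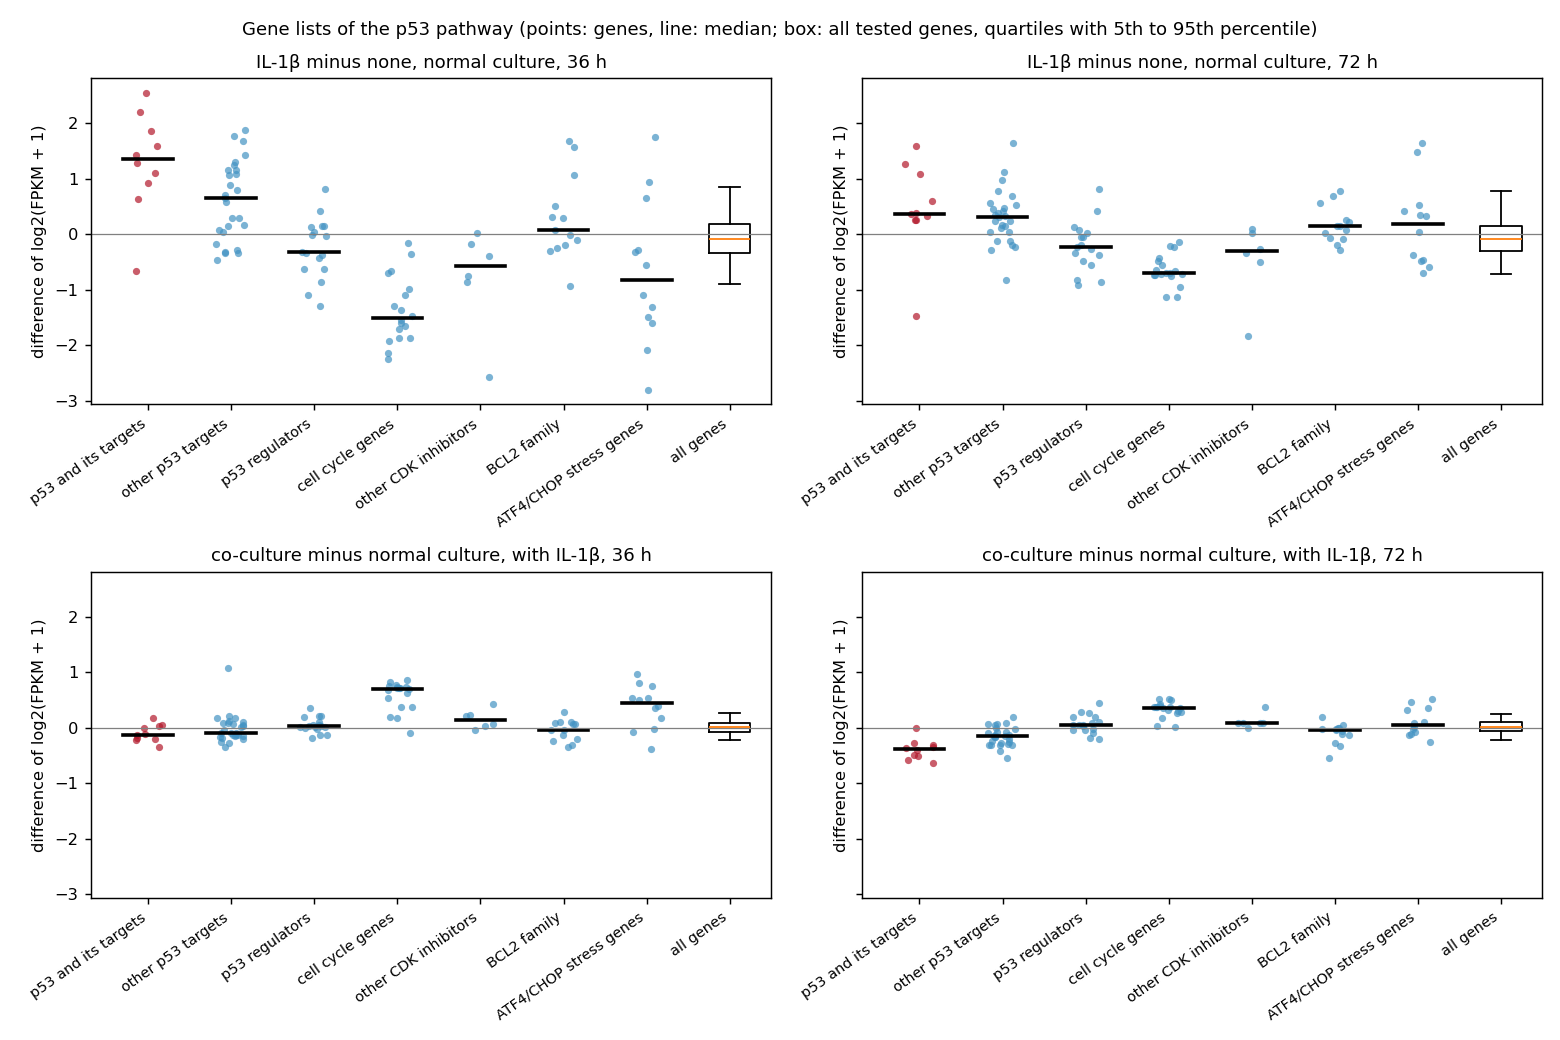
Differences of log2(FPKM + 1) for the genes of 7 lists (points, with the median as a line) beside all genes tested (box from the lower to the upper quartile, whiskers from the 5th to the 95th percentile), in 4 comparisons. With IL-1β in normal culture at 36 h, the medians were 1.36 for p53 and its targets, 0.66 for the other p53 targets and -1.51 for the cell cycle genes. In co-culture against normal culture with IL-1β at 72 h, they were -0.38, -0.16 and 0.36.

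Of 17 p53 regulators tested from a list of 18, 4 rose and 9 fell with IL-1β in normal culture at 36 h, and 2 rose and 10 fell at 72 h. In co-culture, 3 rose and 8 fell at 36 h, and 2 rose and 8 fell at 72 h. The shares of all genes that were higher and lower in normal culture were 25.9% and 41.5% at 36 h, and 23.1% and 40.3% at 72 h. In co-culture they were 23.4% and 35.3% at 36 h, and 18.5% and 30.6% at 72 h. The counts for CDK inhibitors and the BCL2 family have the same shares of all genes beside them. Hipk2, a kinase that phosphorylates p53, averaged 8.06 FPKM in normal culture with IL-1β at 36 h, against 4.16 FPKM without (0.81, adjusted p = 4.1e-06), and Chek1, a DNA damage checkpoint kinase, 0.95 FPKM against 3.78 FPKM (-1.29, adjusted p = 1.6e-11). Among 6 other CDK inhibitors, 4 fell and none rose with IL-1β in normal culture at either time, with no gene higher at an unadjusted p at 36 h and 1 at 72 h. In co-culture, 3 fell and 1 rose at 36 h, and 3 fell at 72 h. The fall was led by Cdkn1c, which encodes p57, at 11.6 FPKM in normal culture with IL-1β at 36 h, against 74.5 FPKM without (-2.58). Of 13 BCL2 family genes tested from 15, 5 rose and 4 fell in normal culture at 36 h, 6 rose and 3 fell in co-culture at 36 h, and 4 rose and 2 fell in each culture at 72 h. Both the antiapoptotic Bcl2l1, at 41.6 FPKM with IL-1β against 13.2 FPKM without (1.58), and the proapoptotic Bax, at 162 FPKM against 77.4 FPKM (1.06), were higher with IL-1β in normal culture at 36 h. Bax and Pmaip1 stand in both the BCL2 family list and that of further p53 targets, Cdkn2a in both the lists of regulators and of CDK inhibitors, and Sesn2 in both those of further targets and of stress genes.

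Because Gdf15 also responds to the transcription factors ATF4 and CHOP, 12 of their stress response genes were listed beside it. With IL-1β in normal culture, 3 rose and 9 fell at 36 h, against 25.9% and 41.5% of all genes, and 6 rose and 5 fell at 72 h, against 23.1% and 40.3%. In co-culture, 2 rose and 8 fell at 36 h, against 23.4% and 35.3% of all genes, and 3 rose and 4 fell at 72 h, against 18.5% and 30.6%. Trib3, a pseudokinase induced by both factors, averaged 5.31 FPKM in normal culture with IL-1β at 36 h, against 42.8 FPKM without (-2.80, adjusted p = 3.0e-18). Ddit3, which encodes CHOP, averaged 22.0 FPKM with IL-1β, against 68.6 FPKM without (-1.60, adjusted p = 2.8e-14). Slc7a11, the cystine transporter subunit, rose instead, to 6.58 FPKM in normal culture with IL-1β at 36 h, against 1.23 FPKM without (1.76, adjusted p = 1.1e-11). At 72 h it averaged 8.44 FPKM with IL-1β, against 1.94 FPKM without (1.65, adjusted p = 5.1e-11), and Ddit4, an inhibitor of mTORC1, averaged 100.2 FPKM with IL-1β, against 35.1 FPKM without (1.49, adjusted p = 2.2e-15). In co-culture without IL-1β at 36 h, where Gdf15 was higher than in normal culture, 5 of the 12 were higher, against 6.28% of all genes, and Ddit3 was lower, at 48.8 FPKM against 68.6 FPKM (-0.48, adjusted p = 9.35e-05), against 9.2% of all genes. With IL-1β at 36 h, 8 of the 12 were higher in co-culture and 1 lower, against 6.38% and 4.17% of all genes. Gdf15 did not pass there. Without IL-1β at 72 h, 3 were higher and none lower, against 1.72% and 1.68% of all genes, and Gdf15 did not pass either. With IL-1β at 72 h, 4 were higher and none lower, against 7.22% and 5.26% of all genes, while Gdf15 was lower. With only these last 2 groups in the fit, none of the 12 passed. The part of ATF4 and CHOP in the Gdf15 changes was not tested.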

How the data were processed

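The authors deposited 1 FPKM value per gene and library for 17094 genes, rounded to 2 decimals, on genome build GRCm38 per the submitters' processing notes. For aligner, counter and annotation, names are not given in the sources used here. Read depth could not be recovered: of 17485 low values in 1405 genes, 22.6% were within 0.1 of whole multiples of their gene's lowest value, against 20% by chance.

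The test covered the 12178 genes that reached 1 FPKM in 3 or more libraries. It used limma 3.58.1 (R 4.3.3) on log2(FPKM + 1), a scale that understates the change of low genes, with 1 mean per group over 24 libraries (16 residual degrees of freedom). Adjusted p-values follow Benjamini-Hochberg over all tested genes of each of 16 comparisons. Comparisons that share a group of libraries are not independent. All 10 genes were tested in every comparison, but not all are named in each comparison described. Up to 4 genes of each other list were named, those past the threshold with the largest change. The genes, lists and tests were chosen with earlier results of these data known. The procedure was tested on simulated data with the same spread in all groups, for IL-1β in normal culture at 36 h only. That test does not cover the wider spread of the groups with IL-1β at 72 h. Same-numbered libraries counted as pairs where the correlation of their deviations from the group means was above 0.1 for each number, which held only for co-culture against normal culture with IL-1β at 72 h (0.364, 0.179 and 0.577). The alternatives were other pseudocounts, filters and scalings, the compared groups alone, the replicate block, library weights and leaving out each library. The block together with the compared groups alone was added after seeing the data. Positions are from GENCODE M21 and promoter sequences from RefSeq (GRCm38.p6). Tables and figures were made with pandas 2.3.3 and matplotlib 3.10.9 under Python 3.11.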

Additional observations from a re-analysis of the deposited data

Results flagged for a closer look

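The effect of IL-1β was found to differ between groups by a test of the difference itself for 20 results, all given as differences of log2(FPKM + 1) from limma. Between the cultures, the effect on Trp53 at 36 h was higher in co-culture by 0.30, and that on Gdf15 at 72 h differed by -0.58. Between the times in normal culture, the effect at 72 h minus that at 36 h was 0.92 for Trp53, -0.94 for Cdkn1a, -0.50 for Mdm2, -1.50 for Ccng1, -1.10 for Trp53inp1, -0.94 for Gdf15, -2.40 for Perp, -0.73 for Phlda3 and -1.03 for Zmat3. In co-culture, it was 0.52 for Trp53, -1.08 for Cdkn1a, -0.68 for Mdm2, -1.46 for Ccng1, -0.91 for Trp53inp1, -1.13 for Gdf15, -2.27 for Perp, -1.01 for Phlda3 and -0.92 for Zmat3. Perp was the gene whose IL-1β effect changed sign downward between 36 h and 72 h in both cultures, and Trp53 the gene whose effect changed sign upward. The Trp53 rise at 72 h in co-culture was small (0.16, adjusted p = 0.014 from limma). It lost its call after rescaling to TPM, and without some single libraries. No group had enough libraries for a check of single outlying values.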

How the results depend on the processing

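Of 160 results for single genes, 104 passed, none of which changed direction under 8 other settings, the added one, or the removal of any of 24 libraries, while 19 lost their call under at least 1 of these. The count of genes passing kept within 1.5 times its value for the 4 comparisons of IL-1β with none, the 4 of 72 h with 36 h and both differences of the IL-1β effect. For co-culture against normal culture without IL-1β at 36 h, the count of 1 became 3 after rescaling to TPM, 5 with the compared groups only and 6 with library weights, and 1 to 4 when single libraries were left out. For the same comparison with IL-1β at 36 h, the count of 1 became 2 with TPM, 2 with the replicate block, 5 with the compared groups only and 6 with library weights, and 0 to 5 without single libraries. Without IL-1β at 72 h, the count of 5 ranged from 1 to 6 without single libraries. With IL-1β at 72 h, the count of 8 became 0 with the compared groups only, and 0 when the replicate block, a setting chosen after seeing the data, was joined to these, but ranged from 7 to 9 without single libraries. The interaction count of 1 at 36 h became 2 with a pseudocount of 0.1, 2 with TPM, 2 with the compared groups only and 3 with library weights, and 1 to 2 without single libraries. At 72 h, the count of 1 became 0 with the compared groups only and 2 with library weights, and 0 to 3 without single libraries. Fitted over all libraries, the replicate block changed the count of no other comparison by more than 1.5 times. The cause of these moves was not tested.

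TPM rescaling moved the median of all genes with IL-1β to -0.149 and -0.203 in normal culture at 36 h and 72 h, and to -0.131 and -0.151 in co-culture, and the higher share of passing genes to 31.5%, 23.6%, 29.8% and 23.9%, against 38.5%, 36.4%, 39.8% and 37.6% without it. Median-of-ratios scaling gave 47.6%, 48.1%, 48.1% and 46.6%. For co-culture against normal culture, the higher share was 40.6% without IL-1β at 36 h and 53.3% after median-of-ratios scaling. Without IL-1β at 72 h, it was 50.7%, against 37.1% with TPM and 61.6% with median-of-ratios scaling. With IL-1β at 72 h, it was 57.8%, against 42.4% with median-of-ratios scaling, and for the interaction at 72 h 54.1%, against 65.6% with TPM and 29.6% with median-of-ratios scaling.

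Some values near 0, none of which passed, changed sign. In co-culture against normal culture with IL-1β, Trp53 at 72 h was at -1.99346e-05 with TPM and -0.0265 with median-of-ratios scaling, and Mdm2 at 36 h at -0.0245 with TPM and -0.00825 with library weights. Ccng1 was at -0.0291 in the interaction at 72 h with median-of-ratios scaling, and Gdf15 without IL-1β at 72 h at -0.0332 with TPM and -0.0284 with library weights. Between the times with IL-1β, Perp in co-culture was at -0.0116 with TPM, -0.0188 with median-of-ratios scaling and -0.0108 with library weights, and Phlda3 in normal culture at -0.0275 with TPM and -0.0876 with library weights. Without single libraries, these ranges crossed 0: with IL-1β in co-culture against normal culture, Trp53 at 72 h (-0.0396 to 0.0501), Mdm2 at 36 h (-0.0634 to 0.0558), Gdf15 at 36 h (-0.0350 to 0.0766) and Bbc3 at 36 h (-0.00796 to 0.0804). Without IL-1β, they were Mdm2 at 36 h (-0.00196 to 0.0886) and Gdf15 at 72 h (-0.0585 to 0.0711). In the interaction at 36 h, they were Cdkn1a (-0.0837 to 0.0285), Mdm2 (-0.106 to 0.0129), Ccng1 (-0.0556 to 0.0124) and Trp53inp1 (-0.0811 to 0.0256), and at 72 h Ccng1 (-0.0845 to 0.140), Trp53inp1 (-0.0222 to 0.425), Perp (-0.272 to 0.00385) and Zmat3 (-0.0353 to 0.168). Between the times, they were Mdm2 (-0.0396 to 0.0256) and Perp (-0.0661 to 0.0554) in co-culture with IL-1β, Phlda3 in normal culture with IL-1β (-0.0388 to 0.0970), and for Bbc3 in normal culture the later minus the earlier IL-1β effect (-0.102 to 0.0440). Read depth was unknown, which limits what can be said of Perp at 36 h, the gene nearest the filter.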
